A study of Homo sapiens with 6 samples.

Results

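EIF5A2, its paralogue EIF5A, the enzymes that add hypusine to both proteins and the core genes of polyamine metabolism were followed across HCT116 colon cancer cells given a control siRNA or either of 2 siRNAs directed at H19. The 10 genes were EIF5A, EIF5A2, DHPS, DOHH, ODC1, AMD1, SRM, SMS, SAT1 and AZIN1. A gene was taken from array rows annotated with its symbol alone, keeping the row of highest mean over the 6 arrays where there were several. Each of the 10 had exactly 1 such row, among 67528 transcript clusters, the gene-level rows of the array, of which 23781 carried 1 symbol. The genes were chosen by their place in one pathway with results of these data already known, and EIF5A2, which heads the set, counts as selected on its log2 differences between the groups, so these are described with no test. The 6 arrays were 2 cultures with the control siRNA si(-), 2 with siH19-1 and 2 with siH19-2, labelled as biological replicates 1 and 2. All cultures received 50 nM siRNA with a lipid reagent and were harvested 48 h later. HCT116 is an established human colon cancer line, and all 3 groups were transfected, so no untransfected level was measured. Values are log2 signals, on which a difference of 1 is a factor of 2, and errors are SDs over the 2 arrays of a group.

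Polyamines are small positively charged metabolites that dividing cells need in large amounts, and their synthesis is often raised in colon cancer. Ornithine decarboxylase, the product of ODC1, makes putrescine from ornithine, and spermidine synthase (SRM) and spermine synthase (SMS) lengthen it with aminopropyl groups supplied by the enzyme AMD1 encodes. Spermidine is also the source of hypusine, a modified lysine found in eIF5A proteins, which deoxyhypusine synthase (DHPS) and deoxyhypusine hydroxylase (DOHH) build in sequence. Hypusinated eIF5A helps ribosomes through stretches where peptide bonds form slowly and at termination. EIF5A is expressed in most tissues, while EIF5A2 is restricted in normal tissues and amplified in some tumours.

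Sequences upstream of 4 of the genes are shown because they differed between the arrays in different ways: EIF5A2 and SAT1 stood apart in the siH19-1 arrays, and SRM and AMD1 in the siH19-2 arrays. They are the 250 bases before the first transcript start that RefSeq lists for each gene on GRCh38.p14, in the direction of transcription, with every CACGTG in capitals. CACGTG is the E-box that MYC and MAX bind, reads the same on both strands, and was chosen because ODC1 is a textbook MYC target. EIF5A2 lies on the minus strand (chr3:170908638-170908887), as does SRM (chr1:11060019-11060268). SAT1 (chrX:23782923-23783172) and AMD1 (chr6:110874535-110874784) lie on the plus strand.
EIF5A2: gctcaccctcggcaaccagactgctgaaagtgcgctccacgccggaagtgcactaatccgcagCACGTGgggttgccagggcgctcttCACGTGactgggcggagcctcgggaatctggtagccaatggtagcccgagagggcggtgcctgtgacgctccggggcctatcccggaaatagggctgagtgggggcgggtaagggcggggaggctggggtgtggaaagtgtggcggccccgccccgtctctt
SAT1: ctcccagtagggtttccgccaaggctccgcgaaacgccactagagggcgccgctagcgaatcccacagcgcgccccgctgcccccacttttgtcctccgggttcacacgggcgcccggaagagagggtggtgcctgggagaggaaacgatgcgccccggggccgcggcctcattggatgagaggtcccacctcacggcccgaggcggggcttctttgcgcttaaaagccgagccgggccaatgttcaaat
SRM: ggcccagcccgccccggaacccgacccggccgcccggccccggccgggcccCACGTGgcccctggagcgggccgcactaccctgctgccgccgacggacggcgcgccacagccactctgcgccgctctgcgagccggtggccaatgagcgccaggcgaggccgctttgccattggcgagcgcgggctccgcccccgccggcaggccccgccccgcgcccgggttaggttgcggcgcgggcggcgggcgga
AMD1: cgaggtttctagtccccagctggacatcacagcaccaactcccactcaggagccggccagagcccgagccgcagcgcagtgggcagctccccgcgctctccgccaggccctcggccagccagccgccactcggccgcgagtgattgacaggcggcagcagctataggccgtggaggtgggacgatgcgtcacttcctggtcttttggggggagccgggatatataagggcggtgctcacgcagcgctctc
The EIF5A2 window held 2 copies of CACGTG, with first bases at -187 and -162 from the transcript start, and the SRM window held 1, at -199. The windows of SAT1 and AMD1 shown held 0. Of the 10 genes, 9 were matched in the RefSeq table and AZIN1 was not, and those 9 had 17 windows counting alternative starts. CACGTG was present in 4 of the 17, the other two being 1 of the ODC1 windows, at -29, and the DOHH window, at -9. Among all 35116 windows of that length in the table, 6.34% held it. The motif was chosen because of ODC1, which is among the 4, and several of the 17 windows belong to the same gene. The share in the 17 is therefore not read against that of all windows. A match of these letters is a description and does not show binding.

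Across 24721 tested transcript clusters, those with a log2 signal of at least 5 on at least 2 arrays, the correlation of log2 signals was 0.9925 to 0.9945 within groups and 0.9744 to 0.9873 between groups. The H19 row, also annotated to MIR675, had log2 signals of 4.82 and 5.02 in control arrays, 4.90 and 4.99 in siH19-1 arrays and 4.95 and 5.02 in siH19-2 arrays. No fall of H19 was detectable (limma adjusted p = 0.938 with siH19-1 and 0.738 with siH19-2). The 23 background probe rows had mean signals from 2.13 to 5.99 with a median of 3.00, so H19 lay within their range but above their median. The names siH19-1 and siH19-2, and every direction below, therefore rest on the array labels. Of 8 epithelial marker genes, 6 had a mean of at least 5, with EPCAM at 11.23 and KRT8 at 13.80, while the intestinal genes VIL1 (3.50) and CDX2 (3.86) were near background. Among 16 genes that mark leukocytes, endothelium and other cells, 15 had a row, and the mean of 1 exceeded the filter value, CD68 at 7.14, which encodes a lysosomal protein of macrophages. The leukocyte gene PTPRC lay at 3.49 and the endothelial gene PECAM1 at 2.90.

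EIF5A2 was the gene of the set with the widest range, 2.60 log2 units over the 6 arrays. Its log2 signal was 6.43 and 6.47 in the control arrays, 9.03 and 8.74 in the arrays labelled siH19-1, and 6.85 and 6.78 in those labelled siH19-2. Both siH19-1 arrays stood far above the other 4, and both siH19-2 arrays lay slightly above both control arrays, so no groups overlapped. The group means were 6.45 ± 0.03 (SD, n = 2), 8.88 ± 0.21 (SD, n = 2) and 6.81 ± 0.05 (SD, n = 2). The level with siH19-1 was thus 2.43 above control, a 5.41-fold difference in signal, and with siH19-2 it was 0.36 above control, 1.29-fold. The difference of siH19-2 from siH19-1 was -2.07, a level 4.2-fold lower. In the list of differences between siH19-1 and control, EIF5A2 stood at rank 8 from the top of 24721 rows, and in that between siH19-2 and control at rank 4943. Leaving out any single array moved the first difference only between 2.29 and 2.58 and the second between 0.33 and 0.40. Summed log2 signals of the 15 other-cell markers were 59.35 to 59.72 in control arrays, 62.41 to 62.66 in siH19-1 arrays and 59.95 to 60.70 in siH19-2 arrays. The sums were highest in the siH19-1 arrays, as EIF5A2 was, and 14 of the 15 markers lay at or under a mean of 5.00. CD68 by itself was 1.02 higher with siH19-1 (limma adjusted p = 0.0205). Its call was lost without control replicate 1 (difference 1.03) or 2 (1.00) and, as for every row, without either siH19-1 array. Levels of CD3E, ALB, GFAP and DCN overlapped between control and siH19-1 arrays. The part of these markers in the EIF5A2 level was not tested.

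**Figure D1:**
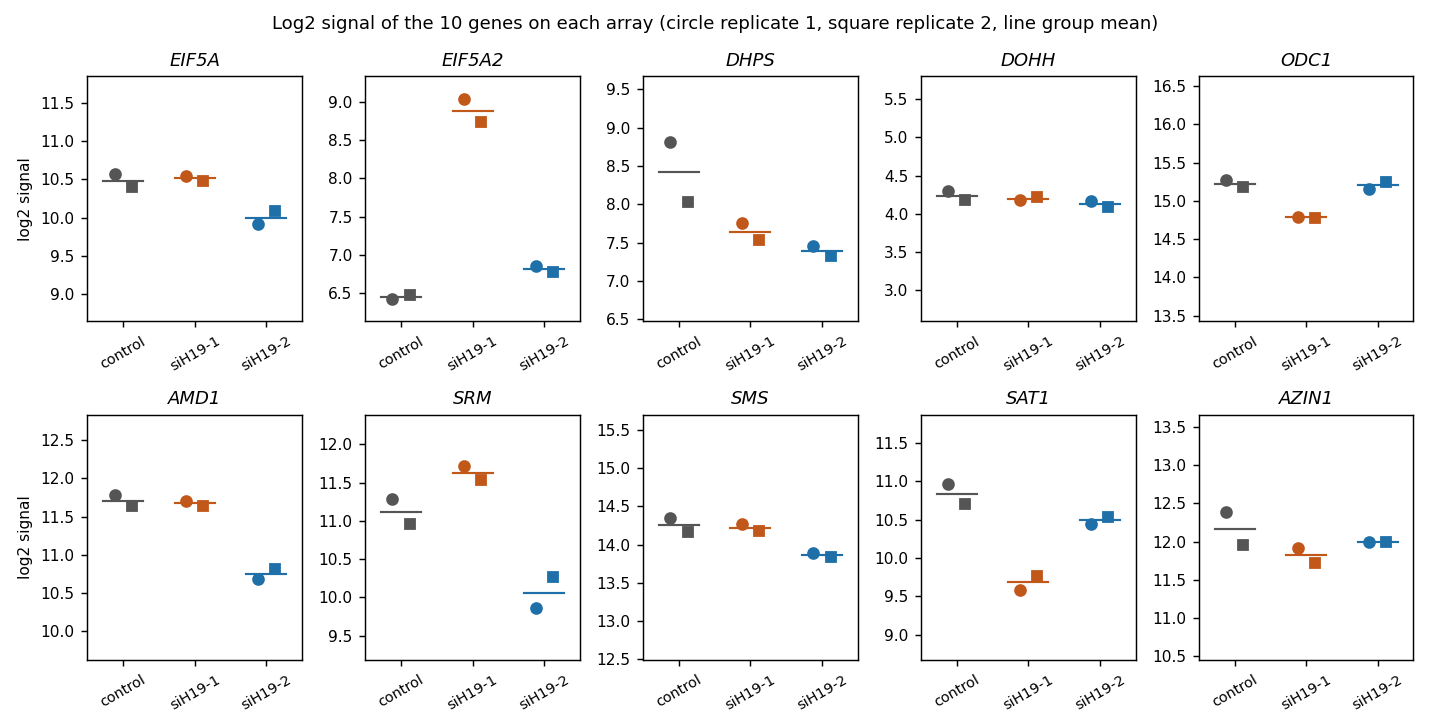
Log2 signal of each of the 10 genes (vertical axes, each spanning the same number of log2 units) on the 6 arrays by group, with circles for replicate 1, squares for replicate 2 and lines for group means. EIF5A2 stands at 9.03 and 8.74 in siH19-1 arrays and below 7 in the other 4, whereas AMD1 and SRM are lowest in siH19-2 arrays.

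The paralogue EIF5A took another course: it fell with siH19-2 and lay at the control level with siH19-1. Its log2 signals were 10.57 and 10.40 in control arrays, 10.55 and 10.48 with siH19-1, and 9.92 and 10.09 with siH19-2. Both siH19-2 arrays lay below the other 4, and control and siH19-1 arrays overlapped. The fall with siH19-2 was 0.48 on the log2 scale (SE 0.12, 1.39-fold lower, limma adjusted p = 0.0454), and EIF5A was also lower with siH19-2 than with siH19-1 (difference -0.51, adjusted p = 0.0419). With siH19-1 the difference from control was 0.03, with a 95% interval from -0.28 to 0.34. The fall against control was close to the threshold and did not pass without any one of the 6 arrays (adjusted p between 0.0602 and 0.213) nor with no filter (0.103), with scaling to the rows that are not transcript clusters (0.0618) or with only the 2 groups compared (0.0938). Against siH19-1 it did not pass without siH19-1 replicate 1 (0.18) or 2 (0.155), siH19-2 replicate 1 (0.204) or 2 (0.0997), nor with no filter (0.0962), median centring (0.0575) or that scaling (0.0796). With an array left out its group holds 1 array, assumed to vary like the other groups. Fewer rows are then called over the whole table in comparisons with that group. The same holds for either siRNA against control when an array of the other siRNA is left out. That leaves the difference as it was, so a call lost there concerns the estimate of spread and not the size. For siH19-1 against control 0 of 24721 rows were called without either siH19-1 array, so a call lost there says nothing about the gene. In pooled cells, fewer cells that express a gene and less of its RNA per cell cannot be told apart.

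DHPS, which carries out the first step of hypusine synthesis, fell with siH19-2 and was lower, without passing the test, with siH19-1. Its log2 signals were 8.81 and 8.03 in control arrays, 7.76 and 7.53 with siH19-1, and 7.46 and 7.33 with siH19-2. The control arrays were far apart, with an SD of 0.55 against 0.16 and 0.09 in the siRNA groups, and all 4 siRNA arrays lay below both of them. The difference was -1.03 with siH19-2 (SE 0.26, 2.03-fold lower, limma adjusted p = 0.0428) and -0.78 with siH19-1 (SE 0.26, limma adjusted p = 0.158). Between the siRNAs it was -0.25, with a 95% interval from -0.89 to 0.39. Control replicate 1 carried much of the size: without it the difference with siH19-2 was -0.63 (adjusted p = 0.062) and with siH19-1 -0.39. Without control replicate 2 they were -1.42 (0.0139) and -1.17 (0.041). The siH19-2 call was also lost without siH19-1 replicate 1 (0.0731) or 2 (0.0733), or siH19-2 replicate 1 (0.146) or 2 (0.161), with no filter (0.0905) and with only the 2 groups compared (0.0733). With scaling to the rows that are not transcript clusters the siH19-1 difference passed (-0.84, 0.0272). DOHH, the second enzyme, had log2 signals from 4.09 to 4.30 on all 6 arrays. It was the gene of the 10 that did not reach the filter value, its level was close to the median of 4.16 over all transcript clusters, and a difference was not detectable at this signal.

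The genes of polyamine synthesis did not move together. SRM, spermidine synthase, had the largest difference between the siRNAs among the 8 tested genes. Its log2 signals were 11.28 and 10.96 in control arrays, 11.71 and 11.53 with siH19-1 and 9.86 and 10.27 with siH19-2. All 3 groups stood apart, with siH19-1 arrays above and siH19-2 arrays below the controls. SRM fell with siH19-2 by 1.05 on the log2 scale (SE 0.19, 2.08-fold lower, limma adjusted p = 0.0171). With siH19-1 it was 0.50 above control (SE 0.19, 95% interval 0.03 to 0.97), which did not pass (limma adjusted p = 0.201). The direct difference of siH19-2 from siH19-1 was -1.56 (SE 0.19, 2.94-fold lower, limma adjusted p = 0.00755). The fall against control was not called without control replicate 1 (-0.90, adjusted p = 0.0614) or siH19-2 replicate 1 (-0.85, 0.0899). The direct difference was not called without siH19-1 replicate 1 (0.0535) or 2 (0.0539) or siH19-2 replicate 1 (0.053).

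AMD1 encodes S-adenosylmethionine decarboxylase, whose product donates the aminopropyl groups that SRM and SMS use. It had log2 signals of 11.78 and 11.64 in control arrays, 11.71 and 11.64 with siH19-1, and 10.68 and 10.82 with siH19-2. Control and siH19-1 arrays overlapped, and both siH19-2 arrays were lower than all of them. AMD1 fell with siH19-2 by 0.96 on the log2 scale (SE 0.12, 1.95-fold lower, limma adjusted p = 0.00619), and it was 0.93 below siH19-1 (difference -0.93, limma adjusted p = 0.00827). The difference of siH19-1 from control was -0.03 (95% interval -0.33 to 0.26). The fall against control kept its call without each array but siH19-2 replicate 1 (-0.89, adjusted p = 0.0523). The difference between the siRNAs was not called without siH19-2 replicate 1 (0.0649), or siH19-1 replicate 1 (0.0606) or 2 (0.0623).

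SMS, spermine synthase, was also lowest with siH19-2, by less. Its log2 signals were 14.35 and 14.17 in control arrays, 14.27 and 14.18 with siH19-1 and 13.89 and 13.84 with siH19-2. Both siH19-2 arrays were below the other 4. The difference of siH19-2 from control was -0.39 (SE 0.12, limma adjusted p = 0.0652) and from siH19-1 -0.36 (limma adjusted p = 0.0879), so neither passed. With quantile normalization both did, at -0.55 (adjusted p = 0.0121) and -0.54 (0.014), as they did with the replicate number as a block (0.0334 and 0.0454). Both settings also called more rows of the whole table in these comparisons. The difference of siH19-1 from control was -0.04 (95% interval -0.32 to 0.25).

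ODC1, the rate-limiting enzyme at the head of the pathway, varied little within groups, with SDs of 0.06, 0.01 and 0.06. Its log2 signals were 15.27 and 15.18 in control arrays, 14.79 and 14.78 with siH19-1, and 15.16 and 15.25 with siH19-2. The siH19-1 arrays were the lowest, and control and siH19-2 arrays overlapped. The difference of siH19-1 from control was -0.44 (SE 0.10, 1.36-fold lower) and did not pass (limma adjusted p = 0.0708), while that of siH19-2 from control was -0.02 (95% interval -0.28 to 0.24). ODC1 was higher with siH19-2 than with siH19-1 by 0.42 (SE 0.10, limma adjusted p = 0.0439). That call was lost with quantile normalization (0.23, adjusted p = 0.236), with median centring (0.39, 0.0947), with no filter (0.109), and without siH19-1 replicate 1 (0.17) or 2 (0.196) or siH19-2 replicate 1 (0.148) or 2 (0.191). AZIN1 encodes an inhibitor of antizyme, the protein that sends ornithine decarboxylase to the proteasome. It had log2 signals of 12.39 and 11.95 in control arrays, 11.92 and 11.72 with siH19-1, and 12.00 on both siH19-2 arrays. It passed in no comparison (limma adjusted p = 0.317, 0.545 and 0.523), with 95% intervals of -0.78 to 0.08 for siH19-1 against control and -0.60 to 0.26 for siH19-2 against control.

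SAT1 encodes spermidine/spermine N1-acetyltransferase, which starts polyamine breakdown and export and is induced by polyamines. It fell with siH19-1, the group in which EIF5A2 was highest. Its log2 signals were 10.96 and 10.71 in control arrays, 9.58 and 9.77 with siH19-1, and 10.45 and 10.53 with siH19-2. The siH19-1 arrays were well below the other 4, and the siH19-2 arrays were slightly below the controls. The fall with siH19-1 was 1.16 on the log2 scale (SE 0.14, 2.23-fold lower, limma adjusted p = 0.0143). With siH19-2 the difference was -0.34 and did not pass (limma adjusted p = 0.137). SAT1 was 0.81 higher with siH19-2 than with siH19-1 (SE 0.14, limma adjusted p = 0.0158). The fall with siH19-1 was not called without control replicate 1 (-1.04, adjusted p = 0.0602) or, as for every row, without siH19-1 replicate 1 (-1.06, 0.119) or 2 (-1.25, 0.0887). The difference between the siRNAs was not called without siH19-1 replicate 1 (0.0919) or 2 (0.0708) or siH19-2 replicate 1 (0.0846) or 2 (0.0849).

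**Figure D2:**
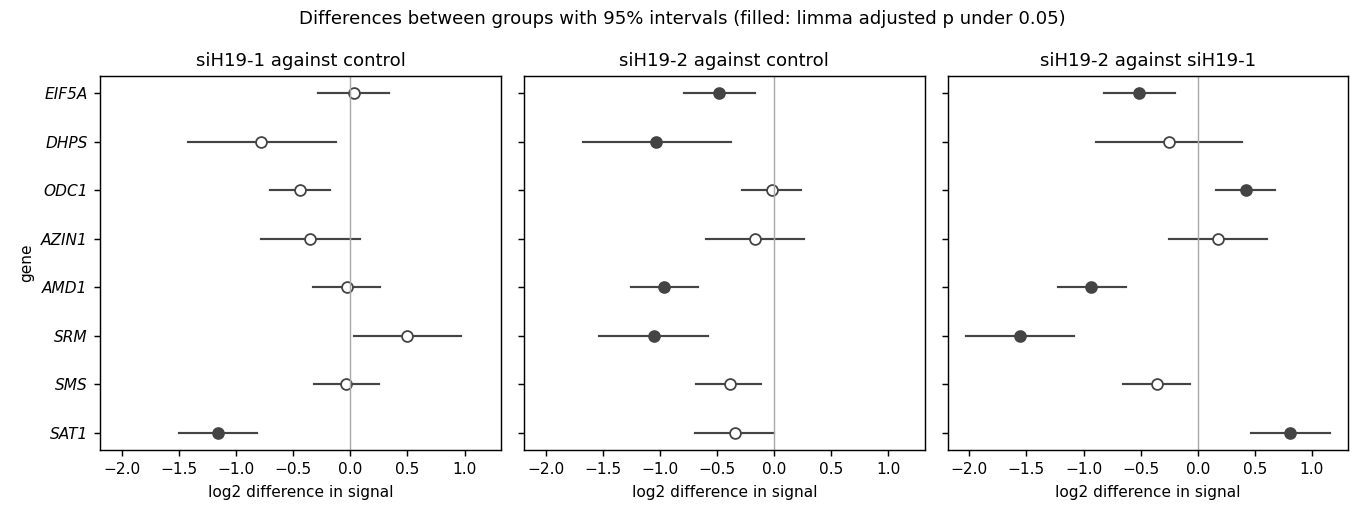
Log2 differences between groups (horizontal axes) for the 8 tested genes, with 95% intervals as lines and filled points where the limma adjusted p passed. SAT1 is filled at -1.16 for siH19-1 against control, and EIF5A, DHPS, AMD1 and SRM are filled and negative for siH19-2 against control.

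Leaving aside EIF5A2 and DOHH, which was under the filter, 8 genes were tested in each comparison. With siH19-1, SAT1 alone was called, lower, where 6.22% of all tested rows were called with 2.65% higher and 3.56% lower. The median difference of the 8 was -0.19, against -0.02 over all rows, and at an unadjusted p under 0.05 the limma fit gave 1 higher and 3 lower. With siH19-2, 4 of 8 were called and all 4, EIF5A, DHPS, AMD1 and SRM, were lower, where 21.0% of all rows were called with 10.2% higher and 10.8% lower. In the same siH19-2 arrays 1 of 6 tested epithelial markers was called against control, CLDN7, 1.19 higher (limma adjusted p = 0.014). The CLDN7 call was lost without control replicate 2 (difference 1.05) or siH19-2 replicate 2 (difference 0.98). The other 5 were not called, and EPCAM was lower (-0.22). The fibroblast marker COL1A1 was 0.46 higher, at a mean of 5.00. It reached the filter value only on the siH19-2 arrays, the group where it was high, so its call is not used. With no filter it did not pass (limma adjusted p = 0.0526). Other fibroblast genes were near background: DCN was lower (3.64 and 3.78 in control arrays, 3.36 and 3.41 with siH19-2), and COL1A2 and LUM overlapped. Summed log2 signals of the 8 epithelial markers were 75.41 to 75.43 with siH19-2, 74.34 to 75.18 with siH19-1 and 72.42 to 74.41 in control arrays, and their part in the lower member levels was not tested. The median of the 8 tested members was -0.44 against 0.04, and at an unadjusted p under 0.05 there were 0 higher and 6 lower. Between the siRNAs 5 of 8 were called, ODC1 and SAT1 higher and EIF5A, AMD1 and SRM lower with siH19-2, where 18.2% of all rows were called, 9.76% higher and 8.42% lower. The median of the 8 was -0.30 against 0.06. With quantile normalization the 5 calls were 1 higher and 4 lower. Leaving out an array, with the other groups supplying the spread of the lone array, mostly lowered the calls of the whole table too. Between the siRNAs the calls of the whole table rose slightly when a control array was left out. Without control replicate 1 the members called in the 3 comparisons were 0, 1 and 5. Without either siH19-1 array they were 0, 2 and 0, where no row of the table was called in the first comparison and 756 or 517 rows, in place of 4495, in the third. Without siH19-2 replicate 1 they were 1, 0 and 0, without siH19-2 replicate 2 they were 1, 2 and 2, and without control replicate 2 they were 2, 3 and 5. The comparisons share arrays, the control arrays or those of an siRNA, and are not independent of each other. Of the 9 genes past the filter, EIF5A2 included, the arrays of the groups compared did not overlap in 6 for siH19-1 and control, where 49.6% of all rows did not. They did not overlap in 7 for siH19-2 and control (60.9% of all rows) and in 9 for the 2 siRNAs (63.8%). EIF5A2 is in all 3 counts and was selected on its differences, so its part in them carries no information and the counts are a description.

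Genes that regulate, degrade or feed polyamines outside the core set were called about as often as all rows, of which 6.22% were called with siH19-1, 21.0% with siH19-2 and 18.2% between the siRNAs (medians -0.02, 0.04 and 0.06). Of 8 tested regulators, catabolic enzymes and arginine-supply genes 1 rose with siH19-1 and 2 fell with siH19-2 (median differences -0.06 and -0.24). NQO1, a quinone reductase that can shield ornithine decarboxylase from the proteasome, fell with siH19-2 from 13.67 and 13.72 to 12.71 and 12.83 (difference -0.93, limma adjusted p = 0.0053) and kept its call without each array. SAT2, a relative of SAT1, fell with siH19-2 (-0.75, limma adjusted p = 0.0171), a call lost without control replicate 1 (0.0611) or 2 (0.056) or siH19-2 replicate 1 (0.0713). The proteasome activator gene PSME3 rose with siH19-1 (0.56, limma adjusted p = 0.0402), a call lost without any one of the 6 arrays. It was also lost with no filter (0.096), median centring (0.0791), scaling to the rows that are not transcript clusters (0.065) or only the 2 groups compared (0.0969).

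Among 7 tested transport genes 0 were called with siH19-1 (limma, with 2 lower at an unadjusted p under 0.05), and 1 was higher and 1 lower with siH19-2, near the 6.22% and 21.0% of all rows called. SLC18B1, a vesicular polyamine transporter gene, rose with siH19-2 from 8.37 and 8.31 to 9.03 and 9.06 (difference 0.71, limma adjusted p = 0.00871), a call lost without siH19-2 replicate 1 (0.0596) or 2 (0.0544). The arginine transporter gene SLC7A1 fell with siH19-2, with log2 signals of 9.99 and 9.97 in control arrays and 7.96 and 9.00 with siH19-2 (difference -1.50, limma adjusted p = 0.0297). With siH19-1 it was also below both controls, at 9.16 and 8.89, without passing (-0.96, limma adjusted p = 0.17). The direct difference between the siRNAs did not pass either (-0.55, limma adjusted p = 0.309). The siH19-2 arrays differed by more than a log2 unit, and without siH19-2 replicate 1 the difference was -0.98 (0.053). When single arrays were left out, the siH19-2 call held only without siH19-2 replicate 2. It was also lost with no filter (0.0614) or with only the 2 groups compared (0.0556). ATP13A3, a polyamine importer gene, was higher with siH19-2 than with siH19-1 (0.55, limma adjusted p = 0.0337), not called without any one of those 4 arrays. It was not called either with no filter (0.0773), quantile normalization (0.0712) or median centring (0.063).

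The methionine salvage pathway recycles the methylthioadenosine that SRM and SMS release. Of 9 tested genes of salvage and S-adenosylmethionine supply 1 fell with siH19-1 and 2 fell with siH19-2, with medians of -0.26 and -0.37 against -0.02 and 0.04 over all rows, and counts near the 6.22% and 21.0% of all rows called. APIP, a dehydratase of the pathway, had log2 signals of 8.04 and 7.85 in control arrays, 7.36 and 7.42 with siH19-1, and 6.87 and 6.88 with siH19-2. It fell with siH19-2 by 1.07 on the log2 scale (limma adjusted p = 0.00416), called without each array. With siH19-1 it fell by 0.55 (limma adjusted p = 0.0424). That siH19-1 call was lost without any one array, with no filter (0.111), median centring (0.058) or only the 2 groups compared (0.0975). ENOPH1, the enolase-phosphatase of the pathway, fell with siH19-2 by 0.83 (limma adjusted p = 0.007), a call lost without siH19-2 replicate 1 (0.0531). Of 6 tested genes that act on ODC1 transcription, MYC among them, limma called 0 in any comparison, with 1 lower at an unadjusted p under 0.05 with siH19-1 and 0 in the other comparisons. So few genes are too few to set 0 calls apart from the 6.22%, 21.0% and 18.2% of all rows called. MYC had log2 signals of 10.07 and 9.60 in control arrays, 9.64 and 9.55 with siH19-1, and 9.50 and 9.73 with siH19-2, and these overlapped. Of 4 genes that export or modify eIF5A, also too few to be read against those shares, limma called 0 in any comparison, with 1 at an unadjusted p under 0.05 for siH19-1 against control, 0 for siH19-2 against control and 2 between the siRNAs.

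**Figure D3:**
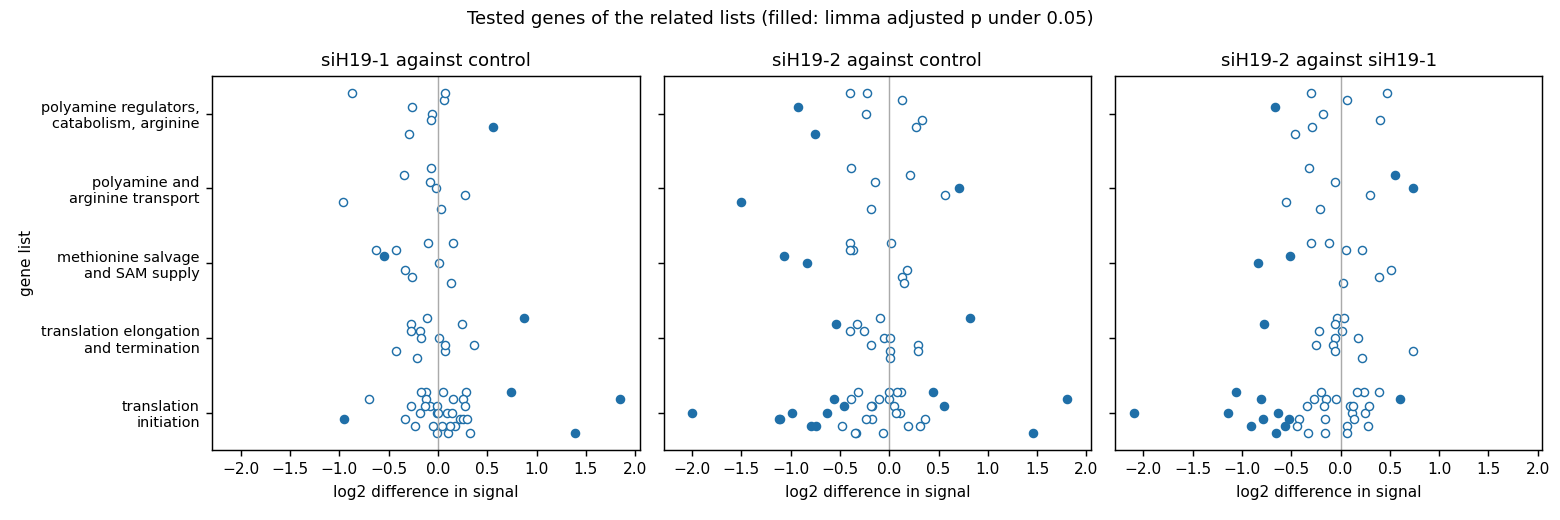
Log2 differences between groups (horizontal axes) for the tested genes of 5 related lists (rows), with filled points where the limma adjusted p passed. For siH19-2 against control the translation initiation row has 9 filled points below 0 and 4 above, and EIF2S2, which fell by 2.00, is the lowest of them.

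Other translation factors are the company in which eIF5A works. Of 34 tested initiation genes 3 rose and 1 fell with siH19-1 (median 0.04), where 6.22% of all rows were called and their median was -0.02. With siH19-2, 4 rose and 9 fell (median -0.17), where 10.2% of all rows were called higher and 10.8% lower and their median was 0.04. EIF2S2, the beta subunit of eIF2, had log2 signals of 12.40 and 12.36 in control arrays, 12.46 and 12.47 with siH19-1 and 10.17 and 10.59 with siH19-2. It fell with siH19-2 by 2.00 (limma adjusted p = 0.00306) and was called without each array. EIF1AX, which helps scan for the start codon, rose by 1.85 with siH19-1 (limma adjusted p = 0.00755) and by 1.80 with siH19-2 (limma adjusted p = 0.0028). EIF4EBP2, a repressor of the cap-binding factor eIF4E, rose by 1.39 (limma adjusted p = 0.0105) and by 1.46 (limma adjusted p = 0.0039). The siH19-2 calls of both held without each array. With siH19-1 the difference of EIF1AX lay between 1.71 and 1.99 and that of EIF4EBP2 between 1.29 and 1.49 whichever array was left out. Their calls were lost, as for every row, without either siH19-1 array, and for EIF4EBP2 also without control replicate 1 (0.0501). The scaffold gene EIF4G1 rose with siH19-1 (0.74, limma adjusted p = 0.0249). This call was lost without any one array, with no filter (0.0584) and with only the 2 groups compared (0.0699). With siH19-2 it was not called against control (-0.32, limma adjusted p = 0.102). It was lower with siH19-2 than with siH19-1 (-1.06, limma adjusted p = 0.00585), and this difference lay between -1.11 and -1.02 whichever array was left out. The call between the siRNAs was lost without either siH19-1 array or siH19-2 replicate 1. With a single array left out, fewer initiation genes were called against control with either siRNA. Fewer rows of the whole table were called there too, so the drop is not particular to initiation genes.

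Of 13 tested elongation and termination genes 1 rose with siH19-1, and 1 rose and 1 fell with siH19-2 (medians -0.11 and -0.05), which is near the 6.22% and 21.0% of all rows called. ABCE1, which recycles ribosomes after termination, rose in both: its log2 signals were 11.83 and 11.86 in control arrays, 12.74 and 12.68 with siH19-1 and 12.66 and 12.67 with siH19-2. The differences were 0.87 (limma adjusted p = 0.0143) and 0.82 (limma adjusted p = 0.00644). The first lay between 0.84 and 0.90 whichever array was left out. It lost its call without control replicate 1 (0.0601) and, as for every row, without either siH19-1 array, and the second did without siH19-2 replicate 1 (0.0536). The release factor gene ETF1 fell with siH19-2 by 0.54 (limma adjusted p = 0.044), a call lost without any one array. It was also lost with no filter (0.0975), scaling to the rows that are not transcript clusters (0.0579) or only the 2 groups compared (0.0854).

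The genes whose pattern over the 6 arrays was most like that of EIF5A2 were sought among 1654 other protein-coding genes with a range of at least 1 log2 unit. By Pearson correlation they were RRM2B (0.9959), ABCD3 (0.9912), CLOCK (0.9901), APOOL (0.9892) and AP3S1 (0.9890). RRM2B encodes a ribonucleotide reductase subunit, ABCD3 a peroxisomal transporter, CLOCK a circadian transcription factor, APOOL a mitochondrial inner membrane protein and AP3S1 an adaptor subunit of vesicle traffic. With 6 arrays in 3 groups, a correlation of this size mostly says that a gene was high in the 2 siH19-1 arrays and near control in the rest. Their levels with siH19-1 were 1.29, 1.15, 1.28, 1.59 and 0.96 above control, all less than the 2.43 of EIF5A2, and with siH19-2 between 0.06 and 0.21 above control. The measure chose these 5, so no test is given.

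**Figure D4:**
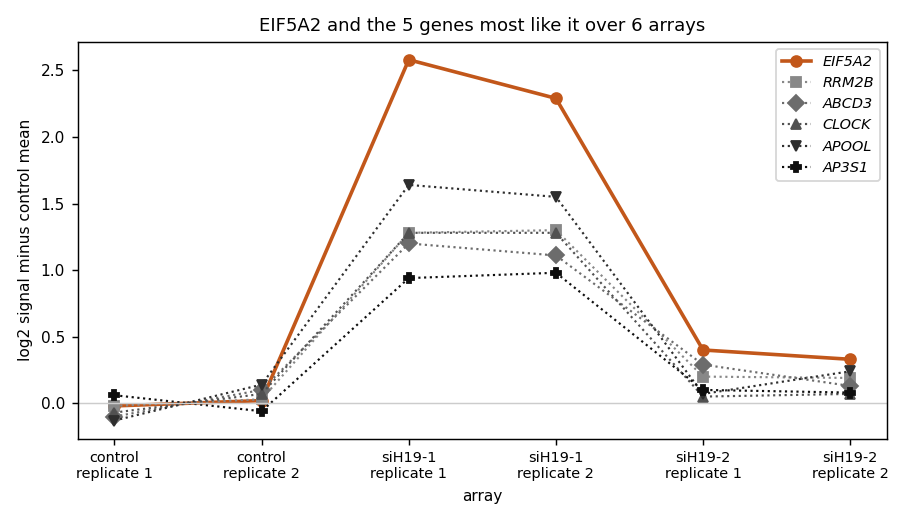
Log2 signal minus the gene's control mean (vertical axis) on each of the 6 arrays for EIF5A2 and the 5 genes most like it, with lines only joining the points of a gene. In both siH19-1 arrays EIF5A2 stands above the other 5, and in the siH19-2 arrays the genes lie close to their control means.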

How the data were processed

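The authors deposited log2 signals for 70523 rows on 6 arrays. Per the submitters' processing notes the software was Affymetrix Expression Console and the method RMA (background correction, quantile normalization and probe summary). Versions and the genome build are not given in the sources used here. Array medians over the 67528 transcript clusters lay between 4.10 and 4.20. Symbols came from the platform annotation. Groups and replicate numbers came from the sample titles.

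The 24721 transcript clusters that reached a log2 signal of 5 on 2 or more arrays were fitted with limma 3.58.1 in R 4.3.3, with a coefficient per group and an intensity trend in eBayes. The fit had 3 residual and 2.75 prior degrees of freedom. P-values, two-sided, were Benjamini-Hochberg adjusted over all tested rows within a comparison, with a threshold of 0.05. The fit was tested on simulated data. The number of arrays limits the precision, and p-values measure the spread between cultures labelled as biological replicates.

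The genes and lists were chosen with earlier results of these data known. All 10 genes are named, up to 4 called genes of smallest p per list, and the 5 genes most like EIF5A2. MYC was named after its values were seen. Alternatives changed the filter, the normalization, the eBayes trend, the arrays in the fit and the replicate block, or left out each array. Those for list genes were added after seeing the data. Protein sequences were not analysed here.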

Additional observations from a re-analysis of the deposited data

Results flagged for a closer look

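SRM was singled out because its differences from control had opposite signs with the 2 siRNAs and the direct comparison passed. That direct p-value was thus part of the choice and is not separate support. Both siH19-1 arrays (11.71 and 11.53) lay above both control arrays (11.28 and 10.96), and both siH19-2 arrays (9.86 and 10.27) lay below them. The log2 difference of siH19-2 from siH19-1 was -1.56 (SE 0.19, limma adjusted p = 0.00755). The siH19-1 difference from control, 0.50, did not itself pass (limma adjusted p = 0.201). EIF5A also had differences of opposite sign, 0.03 with siH19-1 and -0.48 with siH19-2, and passed in the direct comparison (limma adjusted p = 0.0419). Its siH19-1 difference was near 0, and its control and siH19-1 arrays overlapped.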

How the results depend on the processing

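EIF5A2 kept its direction in each comparison and alternative, and the members that were called kept their sign in each. The count of members called with siH19-1 was 1, and 2 with scaling to the rows that are not transcript clusters. With siH19-2 it was 4, and 2 with no filter or with only the 2 groups compared. Between the siRNAs it was 5, and 3 with no filter or with median centring. Leaving out single arrays gave 0 to 2, 0 to 3 and 0 to 5. Without either siH19-1 array no row of the whole table was called with siH19-1, so the 0 there was fixed. Signs turned only for differences near 0: EIF5A with siH19-1 (-0.01 with median centring, -0.04 with that scaling) and ODC1 with siH19-2 (0.06 with that scaling). Without single arrays EIF5A with siH19-1 ranged from -0.06 to 0.11, AMD1 with siH19-1 from -0.10 to 0.04, SMS with siH19-1 from -0.13 to 0.05, ODC1 with siH19-2 from -0.06 to 0.03 and AZIN1 with siH19-2 from -0.39 to 0.05. The cause was not tested. Over all rows 1537, 5203 and 4495 were called, against 607, 3108 and 2667 with no filter, which tests more rows. With only the 2 groups compared, which leaves fewer arrays, they were 557, 3434 and 4731. Without single arrays they ranged from 0 to 770, 1285 to 3655 and 517 to 4760. The scaling gave 628 higher and 1469 lower for 656 and 881 with siH19-1, 3241 and 2116 for 2527 and 2676 with siH19-2, and 4408 and 1511 for 2414 and 2081 between the siRNAs, with a median shift of -0.07, 0.08 and 0.15. Initiation genes called with siH19-1 numbered 4, and 2 with no filter or only the 2 groups compared, and between the siRNAs 11, and 7 with no filter. Each gene had 1 row, so averaging rows changed nothing. Deviations of same-numbered arrays correlated at 0.29, 0.20 and 0.20 between groups. With only 2 numbers the arrays share a number and no stated pairing. With the replicate block 1, 5 and 6 members were called for 1, 4 and 5, SMS being the one added. Calls over all rows rose too, to 2142, 6581 and 5983 from 1537, 5203 and 4495. For the named list genes, 111 refits lost the call and 308 kept it. A signal near background limits DOHH and H19.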

Other observations

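The protein-coding genes beside EIF5A2 on chromosome 3 were looked up after its values were seen. RPL22L1 and SLC2A2, the nearest on either side by RefSeq order, lay under the filter value on most arrays or all. RPL22L1 had log2 signals of 4.94 and 4.90 in control arrays, 4.83 and 4.90 with siH19-1, and 4.88 and 5.01 with siH19-2. SLC2A2 was between 3.20 and 3.57 on all 6 arrays. Of the next pair, SLC7A14 lay between 3.25 and 3.43, and the kinase gene TNIK was expressed. TNIK had log2 signals of 9.22 and 8.61 in control arrays, 9.15 and 8.81 with siH19-1 and 9.28 and 9.01 with siH19-2, with a difference of 0.06 for siH19-1 against control (limma adjusted p = 0.923).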
